A study of Mus musculus with 16 samples.

Results

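Retinoic acid carries positional information in the embryo, and 10 mouse genes that make it, carry it, sense it and break it down were followed here through the Polycomb peak lists: the synthesis genes Aldh1a1, Aldh1a2 and Aldh1a3, the carrier gene Crabp2, the receptor genes Rara, Rarb and Rarg, and the breakdown genes Cyp26a1, Cyp26b1 and Cyp26c1. They were chosen by name, and all 10 were found among the 22232 protein-coding genes with a start site in the GENCODE M1 annotation of the mm9 genome. The ALDH1A enzymes oxidise retinal to retinoic acid, CRABP2 shuttles it to the nucleus, and the RAR proteins bind DNA as partners of the RXR receptors and switch their targets when the ligand is bound. CYP26 enzymes degrade it, so their genes set where the signal ends. In embryonic stem (ES) cells several of these genes are classical Polycomb targets, which carry H2AK119ub1, written by PRC1, and H3K27me3, written by PRC2.

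The series compared wild type mouse ES cells with ES cells depleted of PCGF5, a subunit of a noncanonical PRC1, and both with the neural precursor cells (NPC) obtained from them at day 6 of neural differentiation. All cells derive from a mouse ES line that carries GFP at Sox1, and the depleted cells, labelled shPCGF5, stably express a short hairpin RNA against Pcgf5 after puromycin selection and clone picking. Each of these 4 populations gave 1 H2AK119ub1 and 1 H3K27me3 library. Flag-PCGF5 was profiled in ES cells and in NPC at day 6, both labelled wild type, in a knock-in line whose endogenous Pcgf5 carries a Flag tag. Of 16 libraries, 6 were inputs and 10 had a peak list, so every condition rests on 1 library and no difference below could be tested. In bulk chromatin a mark on fewer cells and a weaker mark on all cells cannot be told apart. The study reports that loss of PCGF5 blocked neural differentiation, with a smaller share of cells expressing the Sox1 reporter. The depleted cells called NPC here may therefore differ from wild type NPC in cell state. Whether differences between the NPC lists go with the depletion itself or with cell state was not tested. The lists ran from 3845 to 14759 histone peaks, with 653 Flag-PCGF5 peaks in ES cells and 12013 in NPC. Peak lists hold no expression. Of the pluripotency markers, Pou5f1 and Nanog had no promoter peak in any list, Zfp42 had one in wild type NPC H3K27me3, and Klf4 had them in wild type NPC H2AK119ub1 and in both NPC H3K27me3 lists. Of the neural markers read, which did not include Sox1, Pax6 had promoter peaks in all 8 histone lists. Nes had them in 6, and Tubb3 in both NPC H3K27me3 lists alone. The 6 markers of primitive streak, mesoderm and endoderm had them in 5 to 8 histone lists.

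A promoter peak is a peak whose centre lies within 2500 bp of a protein-coding start site of the gene. Fold is the enrichment over local background that the peak caller wrote, at the summit of a histone peak or averaged over a Flag-PCGF5 region. Its size was read within a list, by the score percentile, which is the share of the peaks of that list that score lower, ties at their mean rank.

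The sequences just upstream of 5 start sites are shown because these promoters stood at the extremes of the peak data or held a retinoic acid response element. All were read from mm9, run 5′ to 3′ in the direction of transcription, and cover the 250 bases before the start site. The first belongs to the inner start site of Rarb (chr14:17407987-17408236, minus strand) and the second to Cyp26a1 (chr19:37772048-37772297, plus strand). Capitals mark a pair of receptor half-sites in direct repeat, spaced by 5 bases, on the strand shown in Rarb and on the opposite strand in Cyp26a1.
Rarb: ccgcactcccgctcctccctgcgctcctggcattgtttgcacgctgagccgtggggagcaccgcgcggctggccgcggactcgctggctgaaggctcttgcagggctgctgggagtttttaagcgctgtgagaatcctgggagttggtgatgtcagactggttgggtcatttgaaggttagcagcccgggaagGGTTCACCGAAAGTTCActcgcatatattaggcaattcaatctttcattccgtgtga
Cyp26a1: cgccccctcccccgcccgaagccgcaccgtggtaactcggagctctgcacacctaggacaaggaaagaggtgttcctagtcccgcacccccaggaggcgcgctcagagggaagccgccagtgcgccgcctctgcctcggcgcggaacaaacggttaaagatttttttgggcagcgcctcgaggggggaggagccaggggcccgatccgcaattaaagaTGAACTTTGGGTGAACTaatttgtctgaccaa

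In the other 3 sequences capitals mark CpG dinucleotides. Aldh1a2 (chr9:71063346-71063595, plus strand) and the inner start site of Cyp26b1 (chr6:84538633-84538882, minus strand) were under peaks in several lists, and Aldh1a1 (chr19:20676201-20676450, plus strand) was under none.
Aldh1a2: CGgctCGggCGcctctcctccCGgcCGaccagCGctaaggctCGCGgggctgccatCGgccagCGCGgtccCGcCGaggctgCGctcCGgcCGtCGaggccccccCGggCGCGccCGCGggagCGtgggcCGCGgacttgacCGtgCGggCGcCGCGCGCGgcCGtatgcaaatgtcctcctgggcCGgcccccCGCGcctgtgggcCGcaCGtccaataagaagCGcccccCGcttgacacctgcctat
Cyp26b1: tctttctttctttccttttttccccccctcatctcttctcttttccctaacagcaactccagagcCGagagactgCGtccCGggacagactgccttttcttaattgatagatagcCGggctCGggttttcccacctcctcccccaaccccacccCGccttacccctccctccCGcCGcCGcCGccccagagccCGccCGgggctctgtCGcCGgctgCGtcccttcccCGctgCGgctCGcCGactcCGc
Aldh1a1: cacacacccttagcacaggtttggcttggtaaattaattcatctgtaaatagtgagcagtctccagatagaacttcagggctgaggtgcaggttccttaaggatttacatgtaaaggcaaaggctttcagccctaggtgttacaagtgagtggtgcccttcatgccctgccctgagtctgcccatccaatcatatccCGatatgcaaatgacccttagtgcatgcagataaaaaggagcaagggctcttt

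The search covered the half-site AGGTCA and its variants with G first (GGGTCA), with T in the third place (AGTTCA) and with both changes (GGTTCA), on both strands, as 2 half-sites in the same orientation spaced by 1, 2 or 5 bases. In the 300 bases from 250 before to 50 after a start site, 2 of the 10 genes, Rarb and Cyp26a1, held a repeat spaced by 5, beside 24 of 22232 genes (0.108%). With all 3 spacings the same 2 genes held one, beside 125 genes (0.562%). Within 2500 bp of a start site 4 of the 10, Rara, Rarb, Cyp26a1 and Crabp2, held a repeat of any of these spacings, beside 12.2% of all genes. The Rarb repeat began 57 bases before the start site, and no peak of any list covered it. The Cyp26a1 repeat began 32 bases before the start site. All 17 of its bases lay under an H3K27me3 peak in wild type NPC, 4 under the edge of a peak in depleted ES cells and 1 under the edge of a peak in depleted NPC. A second repeat spaced by 5, 1899 bases before the Cyp26a1 start site, was also covered whole in wild type NPC and in no other list. These matches describe the letters and not the binding of a receptor. Rarb and Cyp26a1 are known targets of retinoic acid, so a match at their start sites could be foreseen. The counts are therefore no finding about the set.

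The members differed widely in CpG content. The ratio of observed to expected CpG in the 300 bases, taken at the start site of a gene where it was highest, was 1.11 for Aldh1a2, 1.04 for Cyp26b1 and 0.894 for Cyp26a1, the 3 genes with promoter peaks in the most lists (6, 8 and 8 of 10). It was 0.0588 for Aldh1a1, which had none. The order did not hold throughout, since Rarb stood at 0.713 with a promoter peak in 1 list and Cyp26c1 at 0.274 with one in 4. Over all genes the median ratio was 0.754 for the 3480 genes with an H3K27me3 promoter peak in wild type NPC and 0.575 for the other 18752.

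The 10 genes carried promoter peaks more often than protein-coding genes at large in every list but that of Flag-PCGF5 in ES cells. H2AK119ub1 promoter peaks were found at 4 of the 10 in wild type ES cells (6.69% of all genes), 3 in depleted ES cells (5.96%), 5 in wild type NPC (4.98%) and 2 in depleted NPC (4.17%). H3K27me3 promoter peaks were found at 4 in wild type ES cells (13.4%), 6 in depleted ES cells (12.9%), 6 in wild type NPC (15.7%) and 7 in depleted NPC (15.4%). If any base of a peak was allowed to touch the window, wild type NPC had 7 (15.9%), because a single peak over Cyp26b1 was so wide that its centre fell outside. Flag-PCGF5 had a promoter peak at none of the 10 in ES cells (0.787%) and at 4 in NPC (13.7%). Both histone marks together were present at 3 promoters in wild type ES cells (5.34% of all genes), 3 in depleted ES cells (4.37%), 4 in wild type NPC (4.73%) and 2 in depleted NPC (3.86%). The 4 of wild type NPC leave out Cyp26b1 through that off-centre peak. Its window held 4142 bases under H3K27me3 and 1733 under H2AK119ub1 there.

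**Figure D1:**
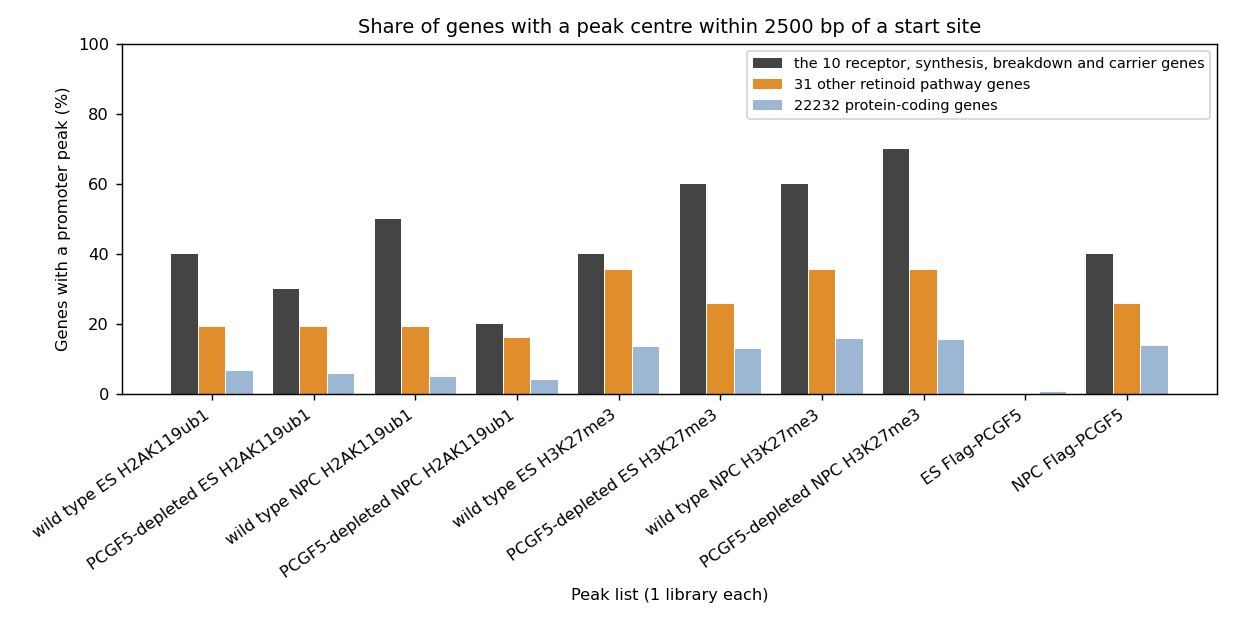
Share of genes (y axis, percent) with a peak centre within 2500 bp of a start site in each of the 10 peak lists (x axis, 1 library each), for the 10 retinoic acid genes, 31 other retinoid pathway genes and all 22232 protein-coding genes. The dark bars stand above the light ones in every list except ES Flag-PCGF5, where neither retinoid set had a gene.

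Summed over the 10 genes, H2AK119ub1 promoter peaks measured 2910 bp in wild type ES cells, 3065 bp in depleted ES cells, 4532 bp in wild type NPC and 1486 bp in depleted NPC. Inside the windows, 2910 bases were covered in wild type and 2528 in depleted ES cells, so the order of the ES values turned. A 1215-bp Cyp26b1 peak of depleted ES cells reached past its window. H3K27me3 promoter peaks measured 4513 bp and 4187 bp in wild type and depleted ES cells, and 12688 bp and 13215 bp in wild type and depleted NPC. The order of the NPC values turned when any base of a peak could touch the window, at 22269 bp in wild type and 15693 bp in depleted NPC, since the 9186-bp Cyp26b1 peak of wild type NPC then counts. The bases covered inside the windows were 16933 in wild type and 13424 in depleted NPC. Over gene bodies, H2AK119ub1 peaks lay in 5, 3, 5 and 2 of the 10 genes in wild type ES, depleted ES, wild type NPC and depleted NPC, beside 9.95%, 8.86%, 5.29% and 5.34% of all genes. The same counts for H3K27me3 were 4, 7, 7 and 7, beside 15.9%, 14.7%, 16.2% and 15.7%. Flag-PCGF5 peaks lay over no member body in ES cells (1.39%) and over 4 in NPC (21.0%).

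**Figure D2:**
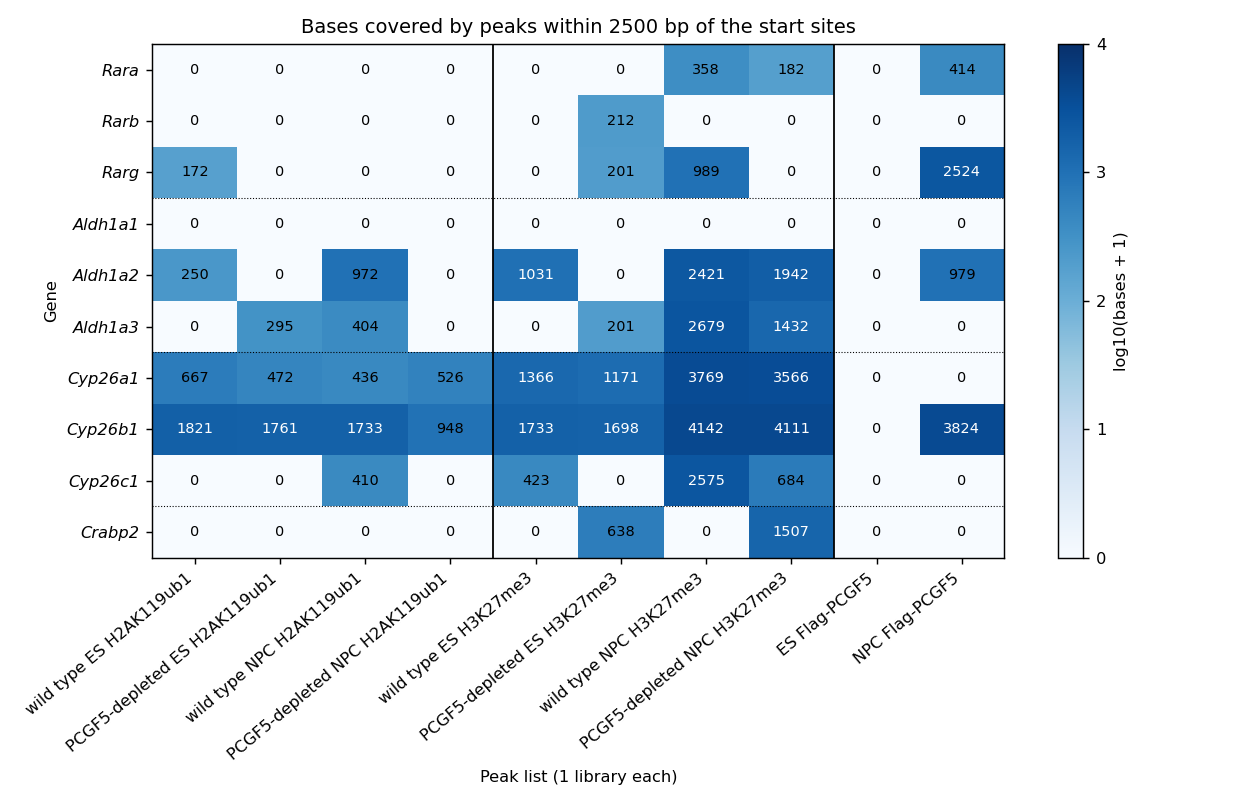
Bases covered by peaks within 2500 bp of the start sites of each gene (rows) in each peak list (columns, 1 library each), with colour on a log10 scale of bases plus 1 and the number of bases printed. Cyp26a1 and Cyp26b1 are filled in all 8 histone lists, Aldh1a1 in none, and Crabp2 in the H3K27me3 lists of the depleted cells.

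Among the synthesis genes, Aldh1a2, which encodes the main retinoic acid synthesising enzyme of the early embryo, had both marks at its start in wild type cells. Its promoter window held 250 bases under H2AK119ub1 peaks in wild type ES cells, 0 in depleted ES cells, 972 in wild type NPC and 0 in depleted NPC. H2AK119ub1 was therefore listed in both wild type populations and in neither depleted one. The wild type ES peak stood at 4.66-fold and the 46.5th score percentile, so it was not in the higher-scoring 50% of its list. Of the 3 peaks in wild type NPC, the highest stood at 5.02-fold and the 71.3rd percentile. The weakest had a −log10 q of 1.10. The corresponding H3K27me3 bases were 1031, 0, 2421 and 1942. In wild type NPC a 1528-bp H3K27me3 peak lay across the start site at 9.59-fold enrichment, at the 96.0th score percentile of its list. In depleted NPC the peak across the start site was 1291 bp wide at 3.12-fold, at the 49.7th percentile, and the highest fold in the window was 5.57. Of the H3K27me3 bases over the window and gene in wild type NPC, 70.4% were also covered in depleted NPC, so the mark occupied largely the same stretch. A 979-bp Flag-PCGF5 peak spanned the Aldh1a2 start site in NPC, at 1.79-fold and the 21.8th score percentile. Of its bases, 729 were under H3K27me3 in wild type NPC.

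Aldh1a3, an enzyme of the developing eye and nose, had peaks of both marks in NPC, mainly around its outer start site. H2AK119ub1 covered 0 bases in wild type ES cells, 295 in depleted ES cells, 404 in wild type NPC and 0 in depleted NPC. H3K27me3 covered 0, 201, 2679 and 1432 bases in the same order. Both marks were thus listed in ES cells only where PCGF5 was depleted, and in NPC the depleted list covered fewer bases of each. The depleted ES peaks stood low in their lists, at the 36.3rd score percentile for H2AK119ub1 and the 30.2nd for H3K27me3. Of the wild type NPC H2AK119ub1 peaks, the stronger stood at the 46.8th percentile. The weaker stood at the 1.43rd, with a −log10 q of 1.10. In wild type NPC 1 H3K27me3 peak of 2157 bp crossed the start site at 5.86-fold, while in depleted NPC the widest of 4 promoter peaks measured 491 bp. Aldh1a1, whose product acts in the dorsal retina among other tissues, had no peak of any list within 10 kb of its body.

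**Figure D3:**
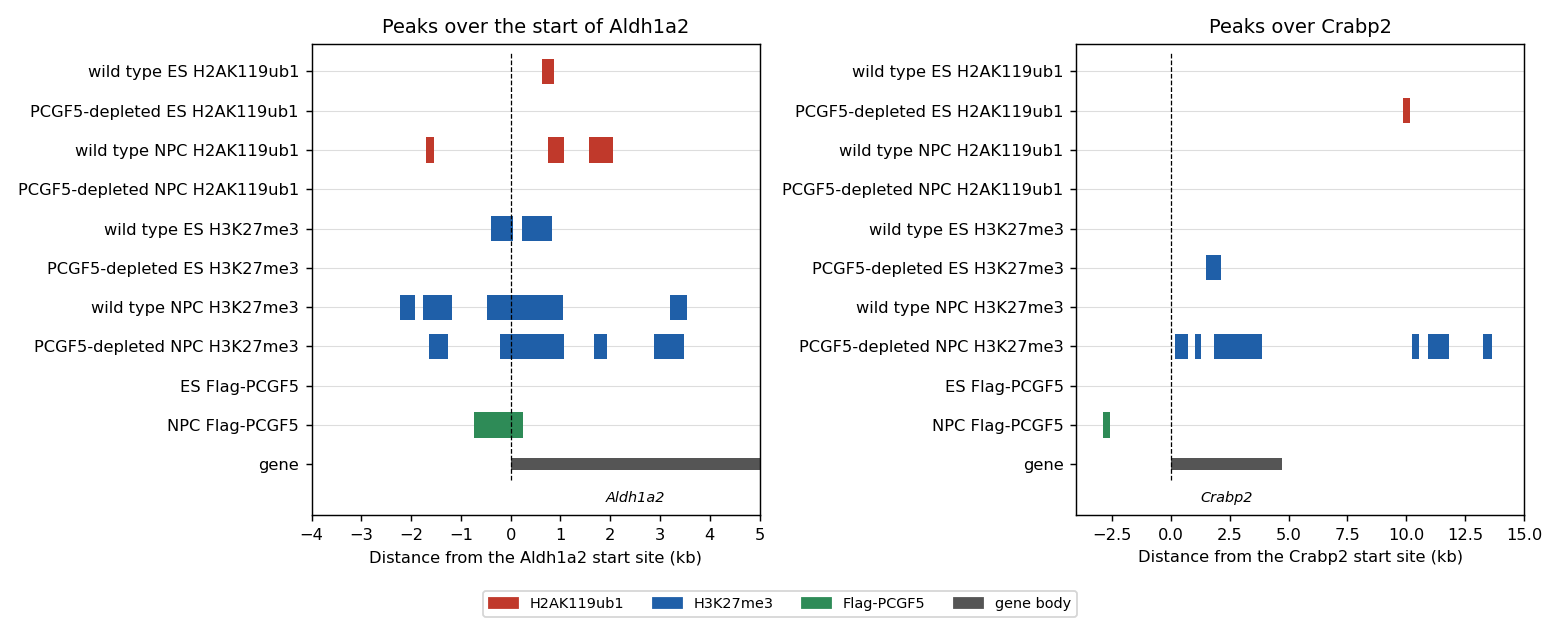
Peaks of the 10 lists (rows; bars span each peak) around the start of Aldh1a2 (left) and over Crabp2 (right), against distance from the start site in kb (x axis, dashed line at the start site). At Aldh1a2 the H2AK119ub1 rows are filled in wild type ES and NPC and empty in the depleted cells, and at Crabp2 the H3K27me3 rows are filled in the depleted cells alone.

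Crabp2, the carrier gene, had H3K27me3 peaks in the depleted cells alone. H3K27me3 covered 0 bases of its promoter window in wild type ES cells, 638 in depleted ES cells, 0 in wild type NPC and 1507 in depleted NPC. No H2AK119ub1 peak was listed in the window in any population. In depleted NPC 3 H3K27me3 peaks covered 2879 bp of the 4711-bp gene (61.1%), the largest being 2055 bp wide at 6.68-fold and at the 94.4th score percentile. The single peak in depleted ES cells lay in an intron at 4.75-fold, at the 55.6th percentile. Of its bases, 49.4% were also covered in depleted NPC. No Flag-PCGF5 peak reached the window, the nearest being a 301-bp peak whose edge lay 2586 bp upstream of the start site in NPC.

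The receptor genes carried few and mostly weak peaks. Rara, the broadly expressed receptor with 6 start sites, had no H2AK119ub1 promoter peak in any list. It had an intronic H3K27me3 peak of 358 bp at 3.96-fold in wild type NPC and of 182 bp at 3.68-fold in depleted NPC, at the 39.7th and 38.3rd score percentiles, and none in ES cells. The 2 peaks shared 128 bases. A 414-bp Flag-PCGF5 peak at 1.94-fold, at the 13.9th percentile, lay over its outermost start site in NPC, away from these peaks.

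Rarb, the receptor gene that is itself a textbook target of retinoic acid, had a promoter peak in 1 list. It was an H3K27me3 peak of 212 bp in depleted ES cells (chr14:17408145-17408356), at 5.84-fold and the 73.3rd score percentile, with its near edge 159 bp upstream of the inner start site. This peak overlapped the upstream end of the sequence printed for Rarb but not its response element. H2AK119ub1 and Flag-PCGF5 had no peak there.

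Rarg, the receptor of early mesoderm and skin, had H3K27me3 promoter peaks in depleted ES cells (201 bp, 4.29-fold, 13.9th score percentile) and in wild type NPC (682 and 307 bp, at most 4.54-fold, 46.8th percentile), and none in wild type ES cells or depleted NPC. The peak in depleted ES cells was lost with q-values of at most 0.01. A lone 172-bp H2AK119ub1 peak in wild type ES cells stood at the 3.95th percentile, near the bottom of its list. In NPC a 2483-bp Flag-PCGF5 peak at 1.88-fold lay over the inner start site and an 835-bp peak in an intron, at the 44.2nd and 39.7th percentiles. Neither overlapped a histone peak of the NPC lists.

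The breakdown genes held most of the bases that both marks covered over the 10 genes in each of the 4 populations. Cyp26b1, which clears retinoic acid in the hindbrain and limb bud, and Cyp26a1, which does so in the early embryo and tail bud and is itself strongly induced by retinoic acid, were the members with both marks over the promoter window in all 4 populations. For Cyp26b1 the window held 1821, 1761, 1733 and 948 bases under H2AK119ub1 in wild type ES, depleted ES, wild type NPC and depleted NPC. The depleted NPC value was the lowest of the 4. Over the whole gene body the H2AK119ub1 cover was 19.6%, 17.0%, 18.3% and 7.03%. H3K27me3 covered 1733, 1698, 4142 and 4111 bases of the window, and 18.4%, 12.6%, 44.3% and 37.7% of the body. Both NPC lists thus covered more of the gene than both ES lists. In wild type NPC 1 peak of 9186 bp (chr6:84531088-84540273) at 9.45-fold ran across the inner start site, and in depleted NPC 5 narrower peaks lay over the body, of which 98.4% of the bases fell within the wild type NPC peaks. Cyp26b1 also had the strongest Flag-PCGF5 peak of the set, 2244 bp wide over the inner start site in NPC at 5.50-fold and at the 97.0th score percentile, with 4 further Flag-PCGF5 peaks over the gene.

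**Figure D4:**
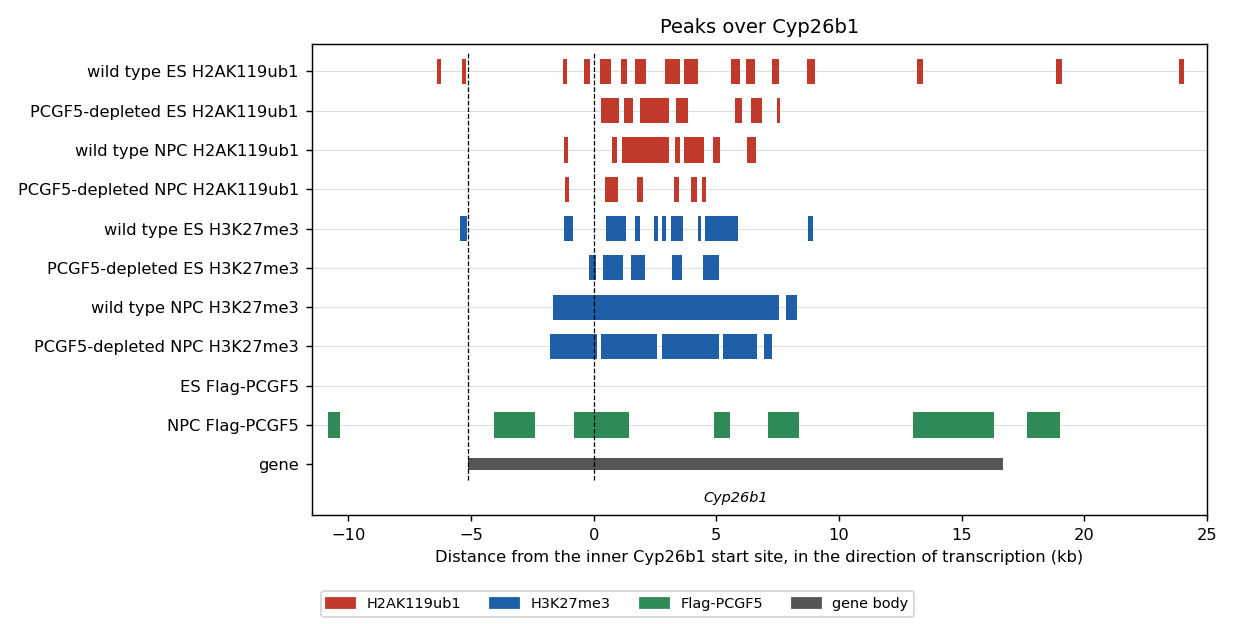
Peaks of the 10 lists (rows; bars span each peak) over Cyp26b1, against distance from its inner start site in kb in the direction of transcription (x axis; dashed lines, start sites; grey bar, gene body). H3K27me3 forms a 9186-bp block with a 477-bp peak beside it in wild type NPC and 5 peaks in depleted NPC, and the Flag-PCGF5 peaks lie in the NPC row alone.

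Cyp26a1 and Cyp26c1 lie in tandem on chromosome 19, with 4409 bp between them. At Cyp26a1 the window held 667, 472, 436 and 526 bases under H2AK119ub1 in wild type ES, depleted ES, wild type NPC and depleted NPC. With q-values of at most 0.01 no promoter peak was left in wild type NPC and 3 in depleted NPC. The positions also differed, since the wild type and depleted ES lists shared 0 bases at this gene. The 2 NPC lists shared 249. H3K27me3 covered 1366, 1171, 3769 and 3566 bases of the window in the same order, and 26.5%, 39.9%, 45.1% and 57.3% of the gene body. In wild type NPC a 3666-bp peak at 7.33-fold ran across the start site, and 82.2% of the depleted NPC bases at this gene were shared with wild type NPC. No Flag-PCGF5 peak was found over either gene.

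At Cyp26c1 the promoter held H2AK119ub1 peaks only in wild type NPC, 410 bases in 2 peaks at or below the 11.2th score percentile. A stronger H2AK119ub1 peak lay in an intron in wild type NPC, at 7.88-fold and the 97.4th percentile, and neither depleted list had an H2AK119ub1 peak over the gene. H3K27me3 covered 423 bases of the window in wild type ES cells, 0 in depleted ES cells, 2575 in wild type NPC and 684 in depleted NPC. Over the gene body the cover was 12.2%, 2.83%, 61.3% and 43.6%. In each stage the depleted list covered fewer bases of Cyp26c1 than the wild type list, but its fold at the promoter in NPC was not lower. The 2575-bp promoter peak of wild type NPC stood at 2.67-fold and the 3.72th score percentile, and the highest of depleted NPC at 4.62-fold and the 64.8th. With peaks within 1000 bp merged, the highest folds were 4.93 and 4.62. With a 1000-bp window or the higher-scoring 50% of each list, Cyp26c1 had an H3K27me3 promoter peak in depleted NPC and none in wild type NPC. The 2575-bp peak of wild type NPC crossed the start site. It was left out because its centre lay 1114 bp away and its score was in the lower 50%.

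**Figure D5:**
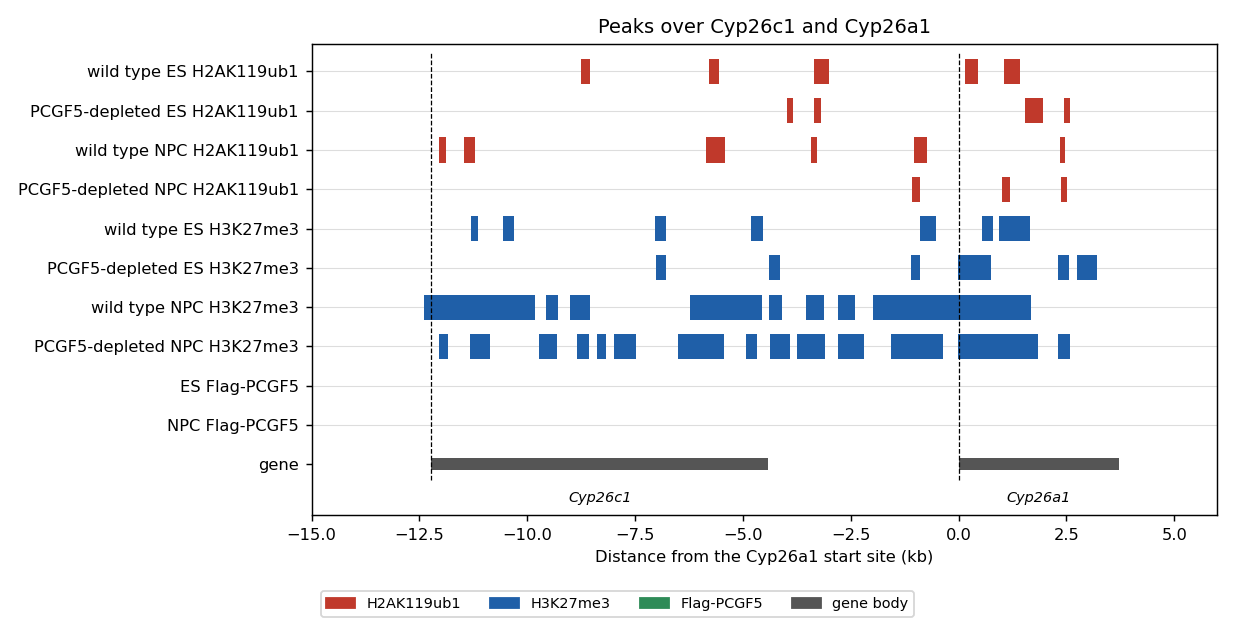
Peaks of the 10 lists (rows; bars span each peak) over Cyp26c1 and Cyp26a1, against distance from the Cyp26a1 start site in kb (x axis; dashed lines, start sites; grey bars, gene bodies). H3K27me3 is densest in the NPC rows, the H2AK119ub1 rows of the depleted cells are empty over Cyp26c1, and both Flag-PCGF5 rows are empty.

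Depleted and wild type NPC were then compared for the set. An H2AK119ub1 promoter peak was present in wild type NPC and absent in depleted NPC at 3 of the 10 genes, Aldh1a2, Aldh1a3 and Cyp26c1 (2.46% of all genes), and the reverse held for none (1.65%). Cyp26a1 and Cyp26b1 had one in both. When the longer list was cut to as many peaks as the shorter, by score, the wild type count was 2, Aldh1a2 and Aldh1a3, and the depleted count was 1, Cyp26a1. For H3K27me3 the promoter peak was present in depleted NPC alone at Crabp2 and Cyp26b1 (3.54%) and in wild type NPC alone at Rarg (3.74%), and Cyp26b1 counts there only because of the off-centre 9186-bp peak. Over the windows and bodies together, H2AK119ub1 covered 6656 bp of the 10 genes in wild type NPC and 2071 bp in depleted NPC, a ratio of 0.311. The whole lists covered 2.33 and 1.12 Mb, a ratio of 0.482. For H3K27me3 the 10 genes had 25185 and 22337 bp, a ratio of 0.887, beside 0.846 for the whole lists. The depleted NPC list of H2AK119ub1 was shorter genome-wide, and what part of the difference at these genes comes from that was not tested. What part comes from a difference in cell state between wild type and depleted NPC was not tested either.

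In ES cells an H2AK119ub1 promoter peak was present in depleted cells alone at Aldh1a3 (2.69% of all genes) and in wild type cells alone at Rarg and Aldh1a2 (3.43%), of which Aldh1a2 alone was left with equal numbers of top-scoring peaks. An H3K27me3 promoter peak was present in depleted ES cells alone at Rarb, Rarg, Aldh1a3 and Crabp2 (3.43%) and in wild type ES cells alone at Aldh1a2 and Cyp26c1 (3.90%). The 4 in depleted cells measured between 201 and 638 bp. Over the 10 genes the covered bases stood at a ratio of depleted to wild type of 0.727 for H2AK119ub1 and 0.775 for H3K27me3, beside 0.841 and 0.891 for the whole lists.

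From ES cells to NPC the larger difference in bases under listed peaks was in H3K27me3. The lists were not scaled by the Drosophila spike-in, so more bases do not mean more of the mark. By Western blot the study saw total H3K27me3 fall during differentiation in wild type and PCGF5-deficient cells. In wild type cells Rara, Rarg and Aldh1a3 had an H3K27me3 promoter peak in NPC alone (6.08% of all genes) and Cyp26b1 in ES cells alone by its peak centre (3.81%). In depleted cells Rara, Aldh1a2 and Cyp26c1 had one in NPC alone (5.60%) and Rarb and Rarg in ES cells alone (3.07%). The bases covered over the 10 genes were 3.30 times as many in NPC as in ES cells in wild type and 3.77 times as many in depleted cells, while the whole lists stood at 2.24 and 2.13. H2AK119ub1 promoter peaks were present in wild type NPC alone at Aldh1a3 and Cyp26c1 (2.51%) and in wild type ES cells alone at Rarg (4.22%). In depleted cells no member had one in NPC alone (1.74%) and Aldh1a3 had one in ES cells alone (3.52%). The H2AK119ub1 bases over the 10 genes stood at a ratio of NPC to ES of 1.06 in wild type and 0.454 in depleted cells, beside 0.937 and 0.537 for the whole lists.

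Flag-PCGF5 peaks in NPC met the histone marks at some of these genes. Of 9 Flag-PCGF5 peaks over the windows and bodies, 4 overlapped an H3K27me3 peak of wild type NPC, beside 6.10% of the 12013 peaks in the list, and 2 overlapped an H2AK119ub1 peak, beside 1.58%. Those 4 lay at Aldh1a2 and Cyp26b1, and both with H2AK119ub1 lay at Cyp26b1. The 9 peaks were 414 to 3307 bp wide, beside a median of 412 bp for the list, and the shares were not matched for width.

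The wider retinoid pathway was read from a list of 31 other genes, of receptor partners and cofactors, carriers, enzymes of retinol and retinal, and responsive genes. H2AK119ub1 promoter peaks were found at 6 of the 31 in wild type ES (6.69% of all genes), 6 in depleted ES (5.96%), 6 in wild type NPC (4.98%) and 5 in depleted NPC (4.17%). The counts for H3K27me3 were 11 (13.4%), 8 (12.9%), 11 (15.7%) and 11 (15.4%), and those for Flag-PCGF5 0 in ES cells (0.787%) and 8 in NPC (13.7%). Between the NPC lists, Meis1 and Meis2, homeobox genes responsive to retinoic acid, had an H2AK119ub1 promoter peak in depleted NPC alone (1.65% of all genes). Lrat, which esterifies retinol, and the responsive gene Hoxb1 were among the 3 with one in wild type NPC alone (2.46%). For H3K27me3, Rxrg, a receptor partner, and Meis2 had a promoter peak in depleted NPC alone (3.54%), and Dhrs3, which reduces retinal, and Tgm2 in wild type NPC alone (3.74%). Nr2f1, an orphan nuclear receptor, had promoter peaks in the same lists as Cyp26a1, which were all 8 histone lists and neither Flag-PCGF5 list, and no other gene of the 31 matched a member with promoter peaks in 3 or more lists.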

How the data were processed

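The files held 10 MACS2 2.1.0 peak lists, 1 per library, called by the authors against inputs on reads trimmed with Trimmomatic, aligned to mm9 with Bowtie2 and cleared of duplicates. The study names default parameters for the histone peaks, but the deposited histone lists end at a −log10 p of 4.00 to 4.05, and 6 of the 8 hold peaks with a q-value above 0.05, up to 8.81% of a list. Flag-PCGF5 peaks were called with a p-value limit and then filtered by the authors at a q-value of 0.01. The deposited columns are a score (10 times the −log10 p of histone peaks or q of Flag-PCGF5 peaks), a fold over background, a −log10 p and a −log10 q. The Drosophila spike-in was not used in the lists, and read depth is not in the files, so a missing peak may reflect depth. Each group had 1 list, called in that library alone, so no test was run.

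Start sites and bodies came from protein-coding transcripts of GENCODE M1, and sequences from the NCBIM37 genome, which is mm9. Every peak ended inside its chromosome there. A promoter peak has its centre within 2500 bp of a start site. Covered bases are those inside the windows, overlaps of windows counted once. Peaks over a body overlap it by at least 1 bp. Counts were made with pandas 2.3.3, and the member counts were checked with bedtools 2.31.1 and on simulated peaks. All 10 genes are named, and of the 31 pathway genes those that differ between the NPC lists or match a member, except for an item that is not reported here. The members and lists were chosen with earlier results of these data known. The alternatives were any base in the window, a 1000-bp window, a q-value of at most 0.01, the higher-scoring 50% of a list, equal numbers of top-scoring peaks, peaks within 1000 bp merged, and 50% of a peak inside the body. The 6 input libraries were not used.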

Additional observations from a re-analysis of the deposited data

Results flagged for a closer look

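Depletion went with opposite differences in ES cells and NPC in 4 cases, each from 1 library a group, and the difference was not tested. In bases of the promoter window covered, depleted minus wild type, Rarg H3K27me3 stood at 201 in ES cells and -989 in NPC. The 201 bases are a single peak with a −log10 q of 1.89, and with q-values of at most 0.01 Rarg had 0 H3K27me3 promoter peaks in both ES lists. Aldh1a3 H2AK119ub1 stood at 295 in ES cells and -404 in NPC, and Aldh1a3 H3K27me3 at 201 and -1247. Neither Aldh1a3 peak of the depleted ES lists was in the higher-scoring 50%. Cyp26a1 H2AK119ub1 stood at -195 in ES cells and 90 in NPC, where wild type NPC had 0 promoter peaks with q-values of at most 0.01.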

How the results depend on the processing

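Of 160 recomputed counts, widths and differences for the set, 112 stayed within 1.5 times the reported value and 48 did not. Counts and widths cannot change sign, and none of the differences did. Of 384 recomputed peak numbers and folds of single genes, 89 moved by more than 1.5 times, for example the H3K27me3 promoter peaks of Cyp26a1 in depleted NPC from 4 to 0 on merging, and the highest H2AK119ub1 fold of Cyp26b1 in wild type NPC from 7.98 to 4.15 in the 1000-bp window. In depleted NPC the Cyp26a1 peaks merged with others upstream into a block that spans the start site but is centred outside the window. The 7.98-fold Cyp26b1 peak has its centre 2110 bp from the start site, outside the 1000-bp window. For the other values the cause was not tested. Keeping the higher-scoring 50% of each list, H2AK119ub1 promoter peaks were found at 2 genes in wild type ES and 2 in wild type NPC, H3K27me3 at 3 in wild type NPC and Flag-PCGF5 at 1 in NPC. Peaks over gene bodies were found at 2 and 3 genes for H2AK119ub1 in wild type ES and wild type NPC, 4 for H3K27me3 in depleted ES and 1 for Flag-PCGF5. With q-values of at most 0.01, wild type NPC H2AK119ub1 was left at 3 promoters and 3 bodies.

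Summed promoter peak widths in a 1000-bp window were 1392, 1051, 1396 and 708 bp for H2AK119ub1 and 2799, 2286, 8033 and 7955 bp for H3K27me3 in wild type ES, depleted ES, wild type NPC and depleted NPC. Against the 2500-bp window, the order of wild type and depleted turned for H2AK119ub1 in ES cells and for H3K27me3 in NPC. In the higher-scoring 50% the widths were 1140, 2770, 2629 and 573 bp for H2AK119ub1 in wild type ES, depleted ES, wild type NPC and depleted NPC. For H3K27me3 they were 3079, 2513, 7351 and 9768 bp in the same order, and for Flag-PCGF5 in NPC 3931 bp. By any base the width for H3K27me3 in wild type NPC was 22269 bp, through the 9186-bp Cyp26b1 peak.

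The next values count the members with a promoter peak in the first population alone minus those in the second alone. For H2AK119ub1 in depleted against wild type ES the difference was 0 with q-values of at most 0.01, with the higher-scoring 50% and with equal numbers of peaks. In depleted against wild type NPC it was -1, 0 and -1 under the same settings. In wild type NPC against ES it was 2 with the 1000-bp window, 0 with q-values of at most 0.01, 0 with the higher-scoring 50% and 2 with equal numbers. In depleted NPC against ES it was 0 with the 1000-bp window, the higher-scoring 50% and equal numbers. For H3K27me3 in depleted against wild type ES it was 1 with the 1000-bp window, q-values of at most 0.01 and the higher-scoring 50%. In depleted against wild type NPC it was 0 by any base, 2 with the 1000-bp window and 2 with the higher-scoring 50%. In wild type NPC against ES it was 1 with the 1000-bp window and 0 with the higher-scoring 50%, and in depleted NPC against ES 2 with the 1000-bp window and with q-values of at most 0.01. With equal numbers of peaks in both NPC lists, an H2AK119ub1 promoter peak stood in wild type NPC alone at Aldh1a2 and Aldh1a3 and in depleted NPC alone at Cyp26a1. No paired analysis was possible because each group has 1 library.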
